A study of Mus musculus with 13 samples.

Results

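The Bcl2 family genes examined here were Bcl2, Bcl2l1, Mcl1, Bax, Bak1, Bcl2l11, Bid, Bad, Pmaip1 and Bbc3, taken by name. A probe set, a short group of probes that reads part of a transcript, counted for a member when the array annotation listed that member and no other gene. This gave 89 probe sets for 9 of the 10 members, among 15121 genes measured. No probe set was listed with Bax, which is therefore not analysed here. All 9 measured members passed the filter on low values and were among the 10584 genes tested.

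Bone marrow of 13 mice of strain Bl/6 Taconic was sorted by flow cytometry, and the RNA of each mouse was read on its own Affymetrix Mouse Exon 1.0 ST array. The mCG-PR mice express PML-RARA, the fusion protein of acute promyelocytic leukaemia, from the mouse cathepsin G locus, a gene of early myeloid cells; the controls were WT littermates with no added allele. The groups were mCG-PR SLAM (2 mice, 7 weeks old), WT SLAM (2 mice, 6 weeks old), mCG-PR KLS at 13 weeks (2 mice), mCG-PR KLS at 6 weeks (3 mice) and WT KLS (4 mice, 12 to 13 weeks old). KLS cells are Kit-positive, lineage-negative, Sca1-positive stem and progenitor cells, and SLAM cells are a stem cell fraction named for SLAM family receptors; the gates themselves are not stated in the labels. WT KLS mice were older than the mCG-PR KLS mice of 6 weeks and than the WT SLAM mice, so age and genotype, or age and population, cannot be told apart in those comparisons. The mCG-PR SLAM mice, at 7 weeks, were also older than the WT SLAM mice and the mCG-PR KLS mice of 6 weeks, and the same limit holds there.

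Members of the Bcl2 family decide whether the outer membrane of the mitochondrion is opened, the step that releases cytochrome c and commits a cell to apoptosis. Bcl2, Bcl2l1 (Bcl-xL) and Mcl1 keep the membrane closed, Bax and Bak1 form the pore, and the BH3-only proteins Bcl2l11 (Bim), Bid, Bad, Pmaip1 (Noxa) and Bbc3 (Puma) sense stress and tip the balance towards death. Mcl1 is required for the survival of blood stem cells in mice, and Bim mediates the death of blood cells deprived of cytokines.

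The sorted populations carried the markers of their labels. Cd48, a surface protein absent from SLAM stem cells, had a mean of 4.25 on mCG-PR SLAM arrays and 5.13 on WT SLAM arrays, against 8.83 to 9.37 in the 3 KLS groups, in log2 intensity. Slamf1, the SLAM receptor that marks stem cells, was at 6.42 and 7.58 in those SLAM groups and at 5.46 to 5.98 in the KLS groups. The mean of 12 mitotic genes was 6.33 to 7.37 on the SLAM arrays and 7.49 to 8.91 on the KLS arrays. A late neutrophil list of 9 genes reached 10.76 on 1 WT SLAM array, against 7.57 to 9.11 on all arrays but that one. The mean of 2 Y-linked genes lay at 4.23 to 4.53 for both mCG-PR SLAM mice and for replicate 3 of mCG-PR KLS at 6 weeks, and 7.67 to 8.48 on the other arrays. In SLAM cells, therefore, genotype and the level of Y-linked genes cannot be told apart. The mCG-PR SLAM arrays also differ in this level from replicates 1 and 2 of mCG-PR KLS at 6 weeks, at 8.46 and 8.38. Its part in the comparison of those groups was not tested. Array medians ran from 98.6 to 115.3 in intensity and were not made equal for the main tests. Precision is limited by how few arrays there were.

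Bcl2l11, which encodes the BH3-only protein Bim, had the widest range of group means among the members, 1.33 on the log2 scale. Bcl2 followed with 0.88, and Bcl2l1 with 0.61. The other members spanned 0.34 to 0.57. FoxO factors are known activators of the Bim gene. Because Bcl2l11 was the member that separated the sorted populations, the 250 bases before its upstream RefSeq start site are shown (GRCm38.p6, chr2:128125788-128126037, plus strand). The capitals mark the FoxO core GTAAACA, searched on both strands (TGTTTAC on the other).
Bcl2l11 promoter: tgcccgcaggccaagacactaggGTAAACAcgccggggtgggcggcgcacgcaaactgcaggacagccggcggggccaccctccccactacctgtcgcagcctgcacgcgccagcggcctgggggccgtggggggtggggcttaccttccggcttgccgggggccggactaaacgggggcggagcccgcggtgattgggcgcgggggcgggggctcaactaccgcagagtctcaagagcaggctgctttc
The match begins at position -227 from the start site. The window of the other Bcl2l11 start site, chr2:128127325-128127574, held no match. The same letters occurred in 1040 of 32851 RefSeq promoter windows of this length, or 3.17%, and in 2 of 14 windows of the 8 members searched, of which the other lies at 1 of the 3 start sites of Bbc3. A match is a description of the sequence and was not tested for binding.

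**Figure D1:**
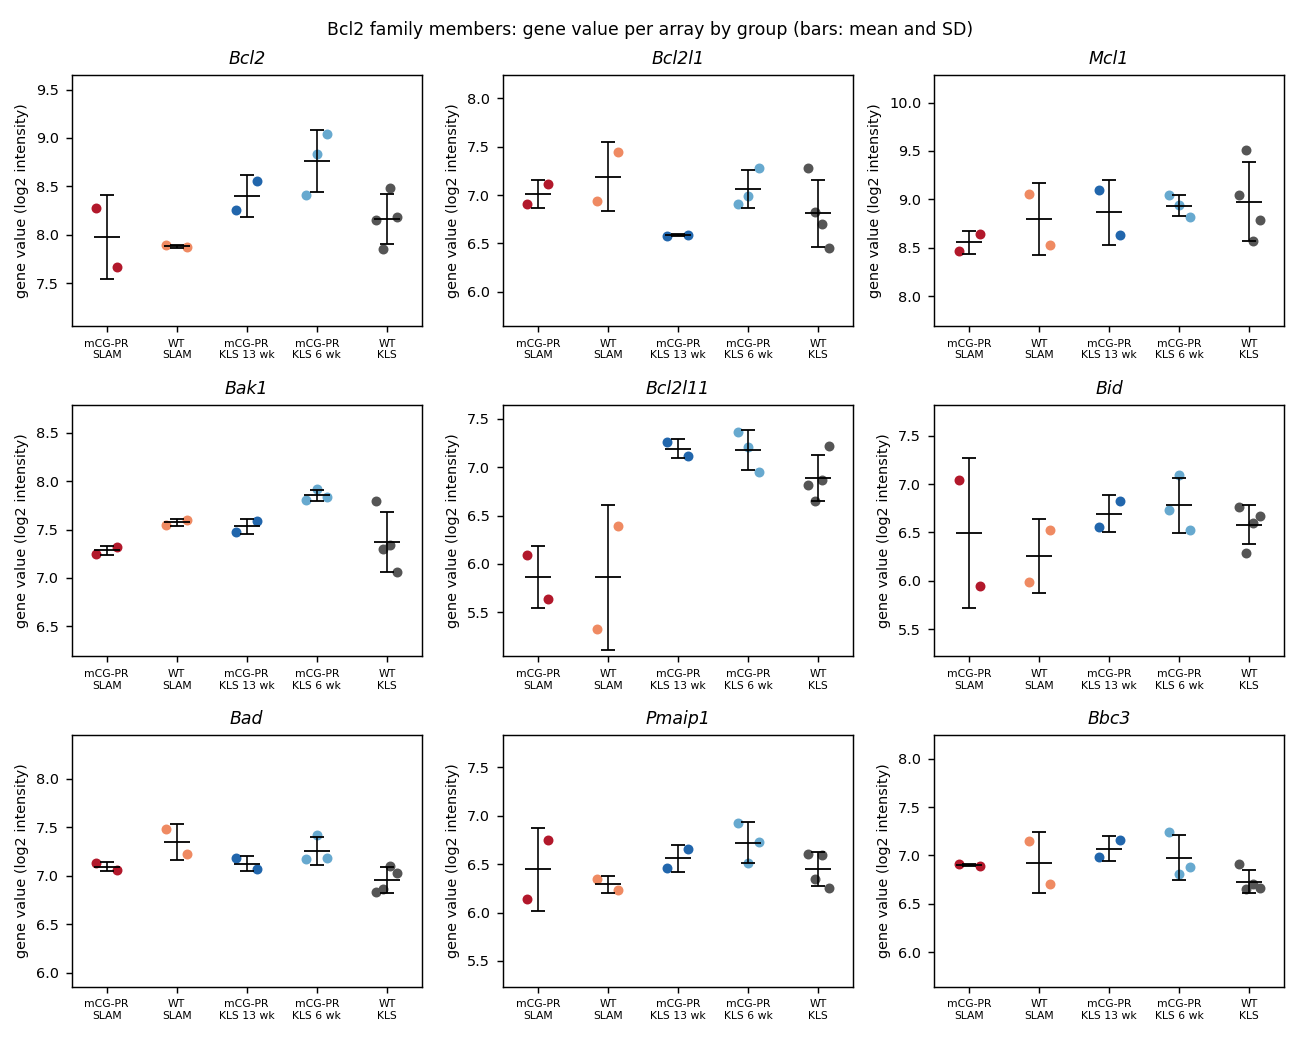
Gene value (median log2 intensity of the gene's probe sets, vertical axis, of equal span in every panel) of the 9 measured members on each of 13 arrays, by group; points are arrays, and bars give the mean and SD. Bcl2l11 shows all 4 SLAM arrays at 5.33 to 6.39, below all 9 KLS arrays at 6.65 to 7.36, whereas SLAM and KLS arrays overlap for the other 8 members.

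SLAM and KLS cells were compared within each genotype, which asks how the members differ between the stem cell fraction and the wider progenitor compartment. Bcl2l11 was lower in mCG-PR SLAM cells than in mCG-PR KLS cells of 6 weeks, and it was the only member of 9 that passed the test there. Its gene value was 6.09 and 5.64 on the mCG-PR SLAM arrays, against 7.36, 7.21 and 6.95 on the mCG-PR KLS arrays of 6 weeks. The groups did not overlap, which was so for 5 of 9 members and for 35.0% of all genes in the lower direction. The log2 difference was -1.31 ± 0.32 (SE), a level 2.49-fold lower, with an adjusted p of 0.0154 in limma. Over all genes tested, 13.1% were called in this comparison and 12.3% were called lower, so 1 of 9 members lies near the background share. The call was lost without mCG-PR SLAM replicate 1 (-1.54, adjusted p = 0.0671) and without mCG-PR SLAM replicate 2 (-1.09, adjusted p = 0.182).

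In WT cells the Bcl2l11 difference had the same sign and did not pass. WT SLAM arrays read 5.33 and 6.39, against 6.82, 6.65, 6.87 and 7.22 on WT KLS arrays, again without overlap, as for 22.3% of all genes in that direction. The log2 difference was -1.02 ± 0.31 (SE), with an adjusted p of 0.0927 in limma, in a comparison where 3.12% of genes were called. It depended on the array: without WT SLAM replicate 1 it was -0.50, and without WT SLAM replicate 2 it was -1.55. The mean of the probe sets in place of their median gave -1.21 and an adjusted p of 0.00987. WT SLAM replicate 2, the higher of the pair, was also the array with the late neutrophil list at 10.76 and the highest mitotic mean of the SLAM arrays, 7.37; their part in the difference was not tested.

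A comparison of the 4 SLAM with the 9 KLS arrays over both genotypes was added after the data were seen. Bcl2l11 changed by -1.17 ± 0.21 (SE) in SLAM cells, with an adjusted p of 0.00165 in limma. This call held without each array in turn, with adjusted p from 0.00128 to 0.0223. Of all genes, 16.8% were called and 9.53% had every SLAM array below every KLS array, as Bcl2l11 did. The test used the same arrays as the within-genotype comparisons and is no separate evidence. The SLAM mice were 6 to 7 weeks old and the KLS mice 6 to 13 weeks old, so age and population are not fully separated in it. In simulation, tests between the populations gave more false calls than their threshold allows, so their adjusted p-values are too small. In bulk RNA, fewer cells expressing a gene and less RNA per cell cannot be told apart.

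Among the probe sets of Bcl2l11, 2 differed far more than its gene value. Probe set 4366918 read 4.33 and 4.36 in mCG-PR SLAM cells and 4.20 and 4.29 in WT SLAM cells, against 8.14 to 10.13 on the 9 KLS arrays, where the median was 8.92. Probe set 5411420 read 3.50 and 2.90 in mCG-PR SLAM cells and 3.92 and 5.20 in WT SLAM cells, against 7.31 to 9.40 on the KLS arrays. On SLAM arrays the 10th percentile of all probe set values was 4.01 and the 25th was 5.38. The SLAM values of both probe sets thus lie at or near the low end of the measured range, and the size of their differences, -4.61 and -4.42 between the array means, cannot be read exactly.

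The Bcl2l11 probe sets did not all behave alike. Probe set 5041179 read 8.81 and 8.36 on mCG-PR SLAM arrays and 10.17 and 7.90 on WT SLAM arrays, against 10.51 to 11.08 on KLS arrays. Several other probe sets overlapped between the populations. Of 15 probe sets, 8 were lower by more than 1 in SLAM cells, compared with 9.49% of all probe sets; the other direction was seen in 4 probe sets, by up to 0.66. The gene value is the median of these 15. Fits of single probe sets between the populations are not used for calls, because most of their calls in simulated data were false.

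**Figure D2:**
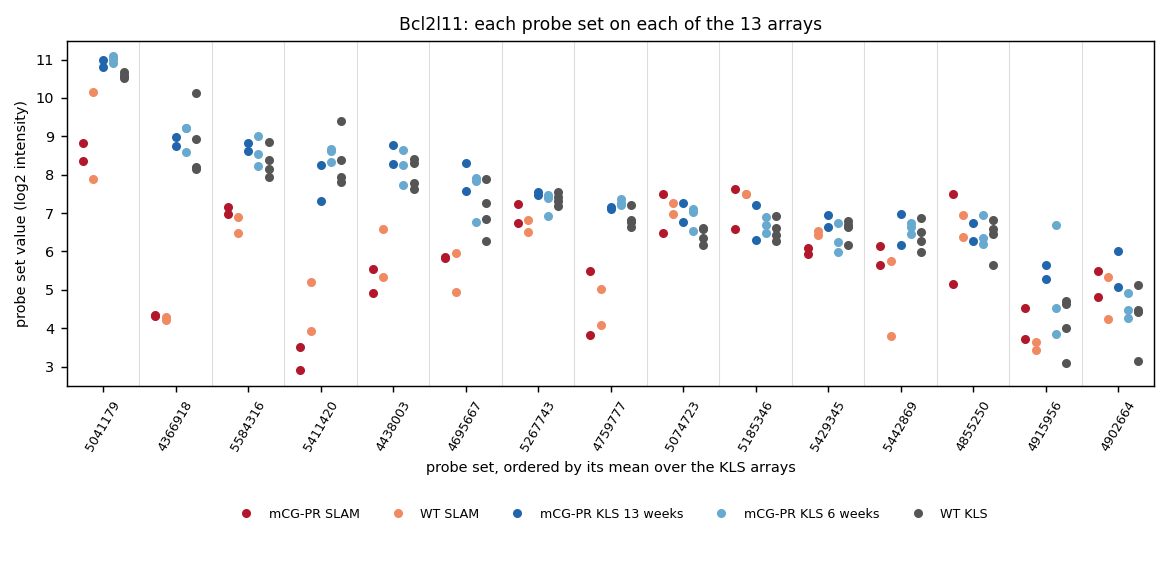
Log2 intensity (vertical axis) of each of the 15 Bcl2l11 probe sets on each of 13 arrays, with probe sets ordered by their mean over the KLS arrays (horizontal axis) and colours for the 5 groups. Probe sets 4366918 and 5411420 lie at 2.90 to 5.20 on the SLAM arrays and at 7.31 to 10.13 on the KLS arrays, while several others overlap.

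Among the survival genes, Bcl2 had its lowest group means in SLAM cells and did not pass the gene test. It read 8.28 and 7.67 on mCG-PR SLAM arrays, against 8.41, 8.83 and 9.04 on mCG-PR KLS arrays of 6 weeks. The log2 difference was -0.78 ± 0.33 (SE), with an adjusted p of 0.138 in limma. With the mean of the probe sets it was -1.17, with an adjusted p of 0.0101. WT SLAM arrays read 7.89 and 7.87, inside the WT KLS range of 7.85 to 8.48, and the difference was -0.29 ± 0.32 (adjusted p = 0.71, limma).

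The Bcl2 probe sets varied among themselves. In mCG-PR SLAM against mCG-PR KLS cells of 6 weeks, 8 of 10 were lower. Probe set 5010010 read 9.90 and 10.72 in mCG-PR SLAM cells, against 11.92 to 12.07 in mCG-PR KLS cells of 6 weeks. In WT SLAM against WT KLS cells, 6 of 10 were lower, and probe set 5010010 read 11.73 and 10.98, against 11.25 to 11.76. Whether the genotypes differ in this respect was tested for the gene value as the genotype difference in SLAM minus that in KLS cells, -0.35 ± 0.47 for Bcl2, with an adjusted p of 0.969 in limma. For single probe sets, 4 of 9 tested lay between -1.57 and -1.78 in that contrast, with adjusted p from 0.393 to 0.905 in limma. Among these, 5336839 and 4696653 rest on WT SLAM arrays at 6.11 and 10.42 and at 8.62 and 10.76. Such fits cannot decide the question. In simulation, 218 of 222 probe set calls in this contrast were false, and 4% of log2 changes of 2 were recovered. No member and no gene passed the test of the gene values; at an unadjusted p under 0.05, 7.82% of genes did and 0 of 9 members did.

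**Figure D3:**
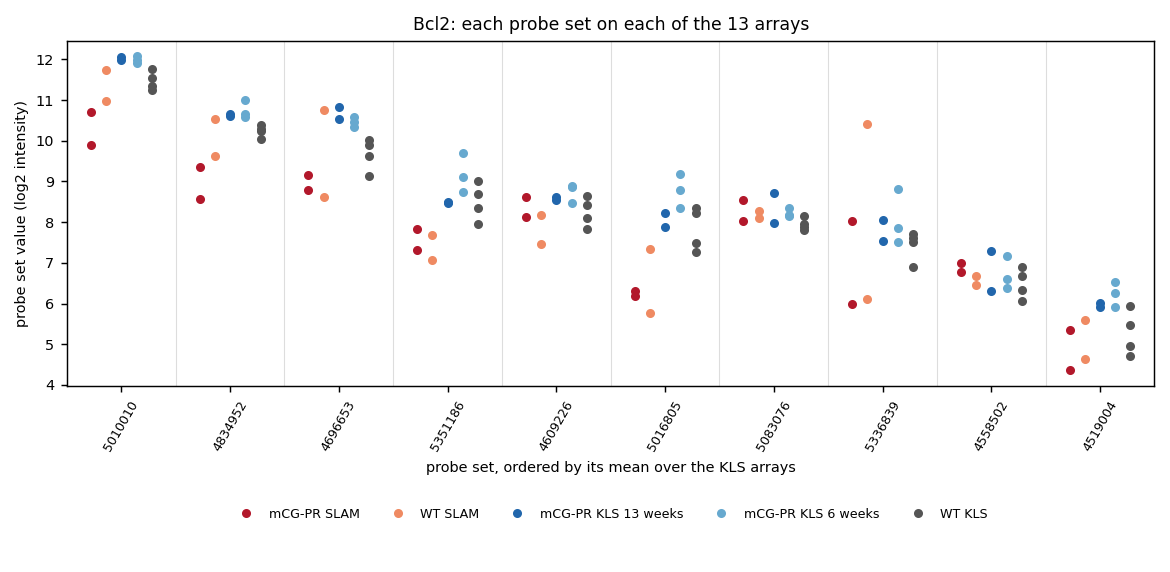
Log2 intensity (vertical axis) of each of the 10 Bcl2 probe sets on each of 13 arrays, with probe sets ordered by their mean over the KLS arrays (horizontal axis) and colours for the 5 groups. For probe set 5010010, both mCG-PR SLAM arrays, at 9.90 and 10.72, lie below the KLS arrays, at 11.25 to 12.07. Of the WT SLAM arrays, replicate 2 at 10.98 also lies below them, and replicate 1 at 11.73 lies among them.

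Bcl2l1 and Mcl1 gave no call between the populations. Bcl2l1, which encodes Bcl-xL, differed by -0.05 ± 0.32 between mCG-PR SLAM and mCG-PR KLS cells of 6 weeks and by 0.38 ± 0.32 between WT SLAM and WT KLS cells. Mcl1 read 8.47 and 8.64 on mCG-PR SLAM arrays and 9.06 and 8.53 on WT SLAM arrays. The mCG-PR KLS arrays read 9.10 and 8.63 at 13 weeks and 9.04, 8.94 and 8.82 at 6 weeks, and the WT KLS arrays 9.04, 9.51, 8.57 and 8.79. All 5 groups overlapped for Mcl1 except that mCG-PR SLAM lay below mCG-PR KLS of 6 weeks. Its log2 difference lay between -0.37 and -0.04 in every comparison of groups, none of which passed.

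The pore former and the other BH3-only genes also gave no call between the populations. Bak1 differed by -0.57 ± 0.28 in mCG-PR SLAM against mCG-PR KLS cells of 6 weeks (adjusted p = 0.219, limma) and by 0.20 ± 0.28 in WT SLAM against WT KLS cells. Bad, whose protein is held inactive by survival signalling, differed by -0.16 ± 0.24 in mCG-PR cells and 0.40 ± 0.23 in WT cells. Bid, which links death receptors to the mitochondrion, spread widely in SLAM cells, at 7.04 and 5.95 on mCG-PR SLAM arrays and 5.99 and 6.53 on WT SLAM arrays. The p53 targets Pmaip1 and Bbc3 differed by -0.28 and -0.08 in mCG-PR cells and by -0.15 and 0.19 in WT cells. By gene value, all 9 members were lower in mCG-PR SLAM than in mCG-PR KLS cells of 6 weeks, with a median of -0.29. Over all genes the median was -0.19, and 36.7% were higher. The probe sets were mixed: Bbc3 had 7 of 9 higher, Mcl1 6 of 10, Bcl2l1 8 of 15 and Bad 3 of 6. In each of the other members more probe sets were lower than higher. With array medians subtracted, the median of all genes was -0.02, and Bcl2l11 was still lower, by -1.14 (adjusted p = 0.043, limma).

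**Figure D4:**
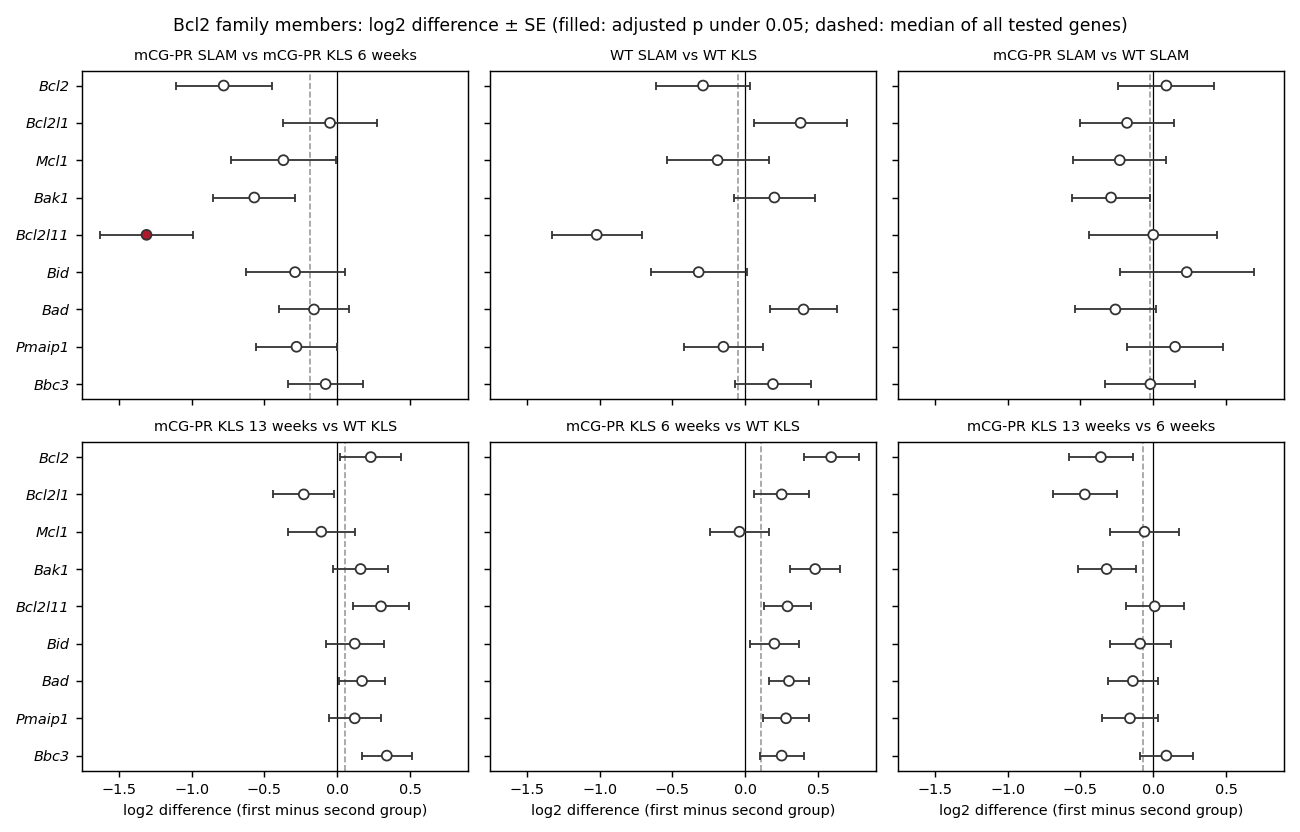
Log2 difference (horizontal axis, first minus second group, ± SE from limma) of the 9 measured members in 6 comparisons. The 1 filled point, Bcl2l11 at -1.31 in mCG-PR SLAM against mCG-PR KLS of 6 weeks, passed an adjusted p of 0.05; dashed lines give the median of all tested genes, from -0.19 to 0.11.

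In KLS cells, the genotype comparison asks whether the fusion alters gene expression in multipotent cells, the subject of the study's title. No member passed at either age. Bcl2 gave the smallest p at 6 weeks: it read 8.41, 8.83 and 9.04 on mCG-PR KLS arrays of 6 weeks, against 8.15, 7.85, 8.48 and 8.18 on WT KLS arrays, with overlap at 1 array on each side. The log2 difference was 0.59 ± 0.19 (SE), with an unadjusted p of 0.00693 and an adjusted p of 0.249 in limma, in a comparison where 0.0378% of genes were called. All 10 of its probe sets were higher, 4 of them without overlap, in a comparison where 71.7% of all genes were higher. Probe sets of 1 gene on the same arrays are not independent, and none of these was called. Without replicate 3 of the mCG-PR KLS mice of 6 weeks, which had low Y-linked genes, the difference was 0.45. With quantile normalization of all arrays the Bcl2 difference was also 0.45 (adjusted p = 0.421, limma). The median of all genes was then 0.01, in place of 0.11.

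Bak1 showed a similar size at 6 weeks. It read 7.81, 7.92 and 7.84 on mCG-PR KLS arrays of 6 weeks, against 7.80, 7.30, 7.34 and 7.06 on WT KLS arrays, so the groups were parted by the gap between 7.81 and 7.80. The log2 difference was 0.48 ± 0.17 (adjusted p = 0.275, limma). All 8 probe sets were higher, 2 of them without overlap and none called. Neither Bcl2 nor Bak1 passed. Bad also did not overlap, at 7.17 to 7.42 in mCG-PR KLS cells of 6 weeks and 6.83 to 7.10 in WT KLS cells. These were 2 of 9 members with every mCG-PR array above every WT array, where 9.45% of all genes had this. Positive differences were seen in 8 of 9 members, with a median of 0.28, beside 71.7% of all genes and a median of 0.11. Mcl1 was the exception at -0.04 ± 0.20. On the arrays of mCG-PR KLS of 6 weeks the dendritic list of 6 genes lay at 7.46 to 7.76, against 6.70 to 7.06 on WT KLS arrays. Within it, the group means of Siglech (7.82 against 6.21), Irf8, Itgax and Ly6d were higher. Those of Cd74 (7.42 against 7.71) and H2-Aa (7.56 against 7.58) were not. The mitotic list lay at 8.43 to 8.91, against 7.49 to 8.50 on WT KLS arrays. The part of both lists in the members' differences was not tested.

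At 13 weeks, mCG-PR KLS cells were closest to WT KLS cells for Mcl1, at -0.11 ± 0.23. The members' median was 0.16, beside 0.05 over all genes, and 0.00945% of genes were called. Bbc3 had the lowest adjusted p, 0.408 in limma, at 0.34 ± 0.17; it read 6.98 and 7.16 on mCG-PR KLS arrays of 13 weeks, against 6.91, 6.65, 6.70 and 6.66 on WT KLS arrays. These groups did not overlap, as was so for 14.8% of genes in this direction. Bcl2 read 8.25 and 8.55 at 13 weeks, a difference of 0.23 ± 0.21. With both ages merged, Bcl2 was at 0.45 ± 0.18 (adjusted p = 0.328, limma) and Bak1 at 0.35 ± 0.16 (adjusted p = 0.398, limma), where 0.0850% of genes were called. Bcl2 stayed positive under all 19 alternatives of that comparison, from 0.28 to 0.55, with none called.

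Between the ages of mCG-PR KLS cells, 13 against 6 weeks, no member passed, and 0.00945% of genes were called. Bcl2l1 read 6.58 and 6.59 at 13 weeks, against 6.91, 6.99 and 7.28 at 6 weeks, without overlap. The log2 difference was -0.47 ± 0.22 (SE), with an unadjusted p of 0.0499 and an adjusted p of 0.412 in limma. Of the 15 Bcl2l1 probe sets, 9 were lower, 0 of them without overlap, and 6 were higher, 2 of them without overlap. Bak1, like Bcl2l1, did not overlap in gene value, with 7.48 and 7.59 at 13 weeks against 7.81 to 7.92 at 6 weeks. These were 2 of 9 members, beside 20.1% of all genes lower without overlap. Bcl2l11 was level at 7.26 and 7.12 against 7.36, 7.21 and 6.95, a difference of 0.01 ± 0.20.

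In SLAM cells, mCG-PR against WT, no member and no gene passed in limma, and 6.27% of genes had an unadjusted p under 0.05, among them 0 of 9 members. The members' differences ran from -0.29 for Bak1 to 0.23 for Bid, with standard errors of 0.27 to 0.46. Bcl2l11 had the same mean, 5.86, in mCG-PR SLAM and in WT SLAM cells, with SDs of 0.32 and 0.75 (n = 2 each). Bak1, at 7.25 and 7.32 in mCG-PR SLAM cells and 7.55 and 7.60 in WT SLAM cells, did not overlap. Its probe sets did not share this direction, as 5 of 8 were higher in mCG-PR SLAM cells and 3 lower. Bad did not overlap either, at 7.13 and 7.06 in mCG-PR SLAM cells and 7.48 and 7.22 in WT SLAM cells. Their count, 2 of 9, stands beside 18.8% of genes lower without overlap. Differences of the size seen in KLS cells were not detectable here. In simulation, 1% of log2 changes of 1 were recovered in this comparison, which used the 4 SLAM arrays. For mCG-PR KLS of 13 against 6 weeks, fitted over the 9 KLS arrays, 91% were recovered. Members' standard errors there were 0.17 to 0.24.

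Genes that act beside the members were counted from lists chosen with earlier results known. In mCG-PR SLAM against mCG-PR KLS cells of 6 weeks, 5 of 12 tested genes of mitochondrial release and the apoptosome were called lower and none higher, beside 12.3% of all genes called lower. Diablo, which relieves caspase inhibition after release from mitochondria, changed by -1.81 ± 0.27 (adjusted p = 0.00118, limma). The outer membrane channels Vdac3 and Vdac1 changed by -1.23 ± 0.25 and -1.41 ± 0.37. Xiap, an inhibitor of caspases, changed by -1.10 ± 0.32 there and by -2.49 ± 0.32 in WT SLAM against WT KLS cells, where it was the 1 of 12 called, beside 3.12% of all genes. Apaf1, the core of the apoptosome, was the other gene called, at -0.94 ± 0.30, and is named because it completes the count. The genes called lower thus included Diablo, which promotes caspase activity, and Xiap, which blocks it.

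The shares called in the lists upstream of the members are to be read against the 13.1% of all genes called in the same comparison, nearly all of them lower. Of 12 tested inducers of BH3-only genes, 2 were called lower in mCG-PR SLAM against mCG-PR KLS cells of 6 weeks, Myc (-1.43 ± 0.34) and the p53 target Trp53inp1 (-1.40 ± 0.35). Foxo3, a known activator of the Bim gene, was not called, at -0.22 ± 0.32 in mCG-PR cells and -0.27 ± 0.31 in WT cells. Of 9 genes for turnover of Mcl1 and Bim protein, Akt1, a survival kinase, was called (-0.99 ± 0.27). Of 11 genes of survival cytokine signalling, 2 were called, Flt3 (-2.21 ± 0.26) and Il7r (-3.27 ± 0.49), both receptors of progenitors; Flt3 was also called in WT SLAM against WT KLS cells (-2.67 ± 0.26). Over both genotypes, where 16.8% of all genes were called, 2 of 6 tested death receptor genes were called lower, Ripk1 (-0.72 ± 0.17) and Casp8 (-0.72 ± 0.19). In the turnover list 3 of 9 were called lower there, Akt1 (-0.80 ± 0.18), Fbxw7 (-0.90 ± 0.24) and Gsk3b (-0.69 ± 0.20); the products of Fbxw7 and Gsk3b mark Mcl1 for degradation. None of these lists held a call in any KLS genotype, age or SLAM genotype comparison. Of 16 other Bcl2 family genes, 6 were tested and none was called in any comparison; the smallest unadjusted p was that of Bmf, a BH3-only gene, at 0.59 ± 0.15 in mCG-PR KLS of 13 weeks against WT KLS (adjusted p = 0.167, limma).

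Over the 13 arrays, the genes whose values followed Bcl2l11 most closely were Slk, Pip4k2a and Macroh2a1, with Pearson r of 0.97, 0.96 and 0.96. Within the 9 KLS arrays alone r was 0.83, 0.78 and 0.50, so part of the likeness is the step between the sorted populations. For Bcl2 they were Snx5, Shmt1 and Itpr1, with r of 0.93, 0.92 and 0.91 over all arrays and 0.95, 0.90 and 0.91 within KLS. For Bcl2l1 they were Pnpla7, Lrp12 and Zfp329, with r of 0.87, 0.86 and 0.86. Among the members themselves the highest r over 13 arrays were 0.65 for Bcl2l11 with Bid, 0.64 for Bcl2 with Bid and 0.63 for Bcl2 with Bcl2l11. These correlations describe arrays that share populations and genotypes, and they carry no test.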

How the data were processed

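The deposited table gave the authors' intensity value of 229581 probe sets on 13 arrays, on a linear scale from 2.34 to 21748.2, made with RMA on build mm9 per the submitters' processing notes; the settings of RMA are not stated there. Per the labels' protocols, cDNA was amplified from 20 ng of RNA. Values were taken to log2 without further scaling. The annotation gave 208397 probe sets a single gene, 3965 more than 1 gene and 17219 no gene. A gene value was the median over at least 3 probe sets listed with that gene alone, and genes above the 30th percentile (log2 6.00) were tested.

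Groups followed the titles. Tests were two-sided in limma 3.58.1 (R 4.3.3), with Benjamini-Hochberg adjustment over all 10584 genes and 0.05 as the threshold. KLS comparisons used the 9 KLS arrays, the SLAM genotype comparison the 4 SLAM arrays, and comparisons across populations all 13 arrays with arrayWeights per population. Values after ± are limma standard errors unless marked SD. The scripts were tested on simulated data, in which most calls of single probe sets between the populations were false, so such calls are not reported. The fits per probe set, the values from bright probe sets only and the comparison over both genotypes were added after the data were seen. Members, lists and tests were chosen with earlier results of these data known.

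Named genes were all members; the 3 genes with the highest Pearson r to each of the 3 members with the widest range of group means; and from each pathway list up to 4 called genes by adjusted p, otherwise the 1 with the smallest p. Foxo3 was named outside this rule. Promoter sequences came from RefSeq (GRCm38.p6), searched for 8 of the members. Alternatives were other filters, the mean of probe sets, quantile normalization, subtracted array medians, the replicate number as a block, each replicate left out, 1 shared spread, weights per array, the compared groups alone, and WT KLS replicates 3 and 4 only.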

Additional observations from a re-analysis of the deposited data

How the results depend on the processing

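Of the member differences under all alternatives, 1287 kept their direction and side of the threshold, 92 that were never called changed sign or lay at 0, 5 became called and 2 lost their call; none that was called changed sign. The number of members called was 0 in WT SLAM against WT KLS, and 1 with the mean of probe sets and 1 with all 13 arrays under 1 spread (Bcl2l11 in both). In mCG-PR SLAM against mCG-PR KLS of 6 weeks it was 1, and 2 with the mean of probe sets and 2 with 1 spread (Bcl2l11 and Bcl2); leaving out each replicate gave 0 to 1. Over both genotypes it was 1, and 2 with the mean of probe sets. The cause was not tested. Same-numbered arrays of different groups had correlations from -0.07 to 0.08 in their deviations from the group means. Differently numbered arrays were not compared, so these values cannot decide whether replicate numbers pair the samples. With the replicate block, Bcl2l11 in mCG-PR SLAM against mCG-PR KLS of 6 weeks was -1.35 (adjusted p = 0.0259, limma) and no member's call changed. Calls over all genes moved more: 94 to 1229 around 330 in WT SLAM against WT KLS, 398 to 2394 around 1387 in mCG-PR SLAM against mCG-PR KLS of 6 weeks, 1058 to 3029 around 1774 over both genotypes, 0 to 275 around 0 in SLAM genotypes, and 0 to 113 around 0 for the difference of genotype effects. KLS comparisons called 1 to 9 genes, and 0 to 43 under alternatives.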

Other observations

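Bcl2 in SLAM cells depended on which probe sets were read. Of its 10 probe sets, 6 were lower and 4 higher in mCG-PR SLAM than in WT SLAM cells, from -1.26 to 0.55. Those lower by more than 1 were 3, beside 10.5% of all probe sets. Probe set 5010010 read 9.90 and 10.72 on mCG-PR SLAM arrays, against 11.73 and 10.98 on WT SLAM arrays. Probe set 4834952 averaged 8.96 on mCG-PR SLAM arrays, against 10.08 on WT SLAM arrays. The third, 5336839, rests on 8.02 and 5.99 on mCG-PR SLAM arrays, against 6.11 and 10.42 on WT SLAM arrays, which overlap. The gene value of Bcl2 differed by 0.09 ± 0.33 as a median and by -0.36 as a mean of probe sets (adjusted p = 0.985 and 0.855, limma). Both mCG-PR SLAM arrays also had low Y-linked genes, and that part was not tested.

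Bid probe sets varied widely between arrays of one group. Probe set 4512043 read 2.98 and 2.04 in mCG-PR SLAM cells, 3.74 and 7.12 in WT SLAM cells, 4.69 and 2.15 in mCG-PR KLS cells of 13 weeks, 5.29, 7.00 and 6.39 in mCG-PR KLS cells of 6 weeks and 4.77 to 5.84 in WT KLS cells. Its mean lay below the filter on low values. Probe set 5353105 read 8.33 and 3.83 in mCG-PR SLAM cells, the extremes of all 13 arrays.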
